A study of Mus musculus with 4 samples.

Results

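Genes of 4 secreted acinar enzymes are described across the cells that descend from pancreatic acinar cells after injury: the carboxypeptidases Cpa1 and Cpb1, the pancreatic amylase Amy2a5 and the ribonuclease Rnase1. They were chosen by name, and all 4 were found among the 32288 measured features. The study traced acinar cells of mice backcrossed into CD-1 that carried Ptf1aCre-ERTM;ROSAYFP/+, in which tamoxifen switches on the yellow fluorescent protein EYFP in cells where the Ptf1a gene is active. All 4 animals had received tamoxifen and then, from 10 weeks of age, caerulein, a cholecystokinin analogue that overstimulates acinar cells. There were 2 mice after 2 weeks and 2 mice after 4 weeks of caerulein, and uninjured pancreas was not analysed here, so no level below can be set against normal tissue. Live EYFP+ pancreas cells were sorted and profiled as single cells, and the authors gave 13362 of the 21140 deposited cells a cell type: Acinar, Acinar.Prolif (cycling acinar cells), Acinar/MucinDuctal (cells between acinar and mucin-secreting states), MucinDuctal, Ductal-like, Tuft, EEC (enteroendocrine) and a small Tuft/EEC.Progenitor class. Every typed cell held at least 1 EYFP UMI (unique molecular identifier, 1 captured mRNA end). The markers went with these names: the summed level of 10 mucin and metaplasia genes was 2266 to 3474 CPM (UMIs per 1000000 UMIs of the cells' total) in Acinar and 34027 to 126103 CPM in MucinDuctal.

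Acinar cells make digestive enzymes as precursors, pack them into zymogen granules and release them into the ducts when cholecystokinin or acetylcholine acts on them. Carboxypeptidase A1 cleaves aromatic and aliphatic residues from the C-terminal end of peptides, carboxypeptidase B1 cleaves arginine and lysine, amylase breaks down starch, and pancreatic ribonuclease digests RNA. Their transcription in acinar cells depends on the PTF1 complex, in which Ptf1a and Rbpjl bind an E-box next to a TC-rich box. Loss of these enzymes is a textbook sign of acinar-to-ductal metaplasia, the conversion of acinar cells to duct-like cells in pancreatitis.

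In GENCODE vM21 on mm10, Cpa1 lies on the plus strand of chromosome 6 from 30639218 to 30645363 and its longest coding transcript has 10 exons. Cpb1 lies on the minus strand of chromosome 3 from 20248264 to 20275733 and has 11 exons. Amy2a5 lies on the minus strand of the same chromosome from 113247178 to 113258837, has 10 exons and belongs to a row of amylase genes. Rnase1 lies on the minus strand of chromosome 14 from 51144998 to 51146785 and has 2 exons. Because the 4 genes are high in the same cell types, the 250 bases before each start site are shown, from RefSeq on GRCm38.p6, 5′ to 3′ on the gene's strand. The windows are chr6:30638968-30639217 for Cpa1, chr3:20275734-20275983 for Cpb1, chr3:113258700-113258949 for Amy2a5 and chr14:51146768-51147017 for Rnase1. Capitals mark matches, on either strand, to short motifs of acinar and general promoters, and no match overlapped another. The E-box, which helix-loop-helix factors such as Ptf1a bind, was searched as CANNTG. The RBPJ-type box, the kind of site that Rbpjl binds, was searched as TTCCCA. The TATA box, which places the start of transcription in many highly used genes, was searched as TATAAA. The half-site of the nuclear receptor NR5A2, another regulator of acinar genes, was searched as AAGGTCA.
Cpa1: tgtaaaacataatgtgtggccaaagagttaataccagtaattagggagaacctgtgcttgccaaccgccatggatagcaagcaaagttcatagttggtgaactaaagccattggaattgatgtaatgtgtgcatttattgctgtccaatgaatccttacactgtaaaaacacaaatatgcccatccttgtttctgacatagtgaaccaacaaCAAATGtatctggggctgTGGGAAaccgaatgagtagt
Cpb1: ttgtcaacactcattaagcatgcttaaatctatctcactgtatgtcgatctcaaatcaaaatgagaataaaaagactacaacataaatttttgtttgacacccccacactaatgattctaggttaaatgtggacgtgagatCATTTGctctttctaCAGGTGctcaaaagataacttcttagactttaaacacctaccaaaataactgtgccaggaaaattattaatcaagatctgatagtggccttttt
Amy2a5: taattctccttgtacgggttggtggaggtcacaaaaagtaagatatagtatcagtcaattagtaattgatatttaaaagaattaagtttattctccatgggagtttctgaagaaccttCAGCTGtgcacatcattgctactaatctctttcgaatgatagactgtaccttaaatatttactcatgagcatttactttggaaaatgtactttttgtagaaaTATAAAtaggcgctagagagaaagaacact
Rnase1: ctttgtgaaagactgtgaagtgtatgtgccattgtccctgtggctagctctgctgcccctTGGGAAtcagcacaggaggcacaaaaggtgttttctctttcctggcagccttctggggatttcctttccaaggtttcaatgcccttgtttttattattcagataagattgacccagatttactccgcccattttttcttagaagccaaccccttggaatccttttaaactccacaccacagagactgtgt
The Cpa1 window held an E-box starting 38 bases and an RBPJ-type box starting 20 bases before the start site. Cpb1 held 2 E-boxes, starting 109 and 94 bases before the start. Amy2a5 held an E-box starting 132 bases and a TATA box starting 30 bases before it, and Rnase1 held an RBPJ-type box starting 190 bases before it. These distances count from the RefSeq start. For Amy2a5 and Rnase1 the GENCODE start lies inside the window, and both Amy2a5 matches lie within the GENCODE gene. Of 32536 distinct promoter windows of this length, 66.2% held an E-box, 21.6% the RBPJ-type box, 12.3% the TATA box and 4.1% the NR5A2-type half-site, so most of these short matches are common, and the half-site was in none of the 4 windows. A match is a run of letters and was not tested as a binding site, and the sequence is that of the reference strain, not of CD-1.

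The 4 genes differ in how well a UMI can be assigned to them. The kit reads the 3′ end of an mRNA, and counts were therefore not divided by gene length. In the last 500 bases of the GENCODE transcripts of Cpa1, Cpb1 and Rnase1, 0 of 410 windows of 91 bases recurred in another gene's transcript. For Amy2a5 this depended on where the transcript ends. At the GENCODE end 0 of 410 windows were shared, but at the RefSeq end, 2000 bases earlier, all 410 windows (100%) also occurred in Amy2a2, Amy2a3, Amy2a4 and Amy2b. For Amy2a2, Amy2a3 and Amy2a4 all 410 windows at the GENCODE end were shared among them. A read from shared sequence has no single gene, and how such reads were counted is not given in the sources used here. The amylase copies that were measured had mean levels in Acinar of 7.69 CPM (Amy2a2), 5.90 CPM (Amy2a3), 6.86 CPM (Amy2a4) and 40.5 CPM (Amy1, the salivary-type gene). Amy2a5 values are therefore uncertain as a measure of pancreatic amylase as a whole and are used below only between cells.

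The enzymes were at their highest in acinar cells, and 3 of the 4 were at their highest in the Acinar type. Cpa1 stood at 18165 and 20837 CPM in the 2-week mice and at 21511 and 20659 CPM in the 4-week mice, a mean of 20293 ± 1465 CPM (SD, n = 4). That made it the seventh most abundant of 25 digestive enzyme genes, with 3.86% of their summed level, below the chymotrypsinogen Ctrb1 (43.7%). Cpb1 stood at 11514 and 8612 CPM at 2 weeks and at 10182 and 9545 CPM at 4 weeks, a mean of 9963 ± 1218 CPM. Rnase1 stood at 7825 and 6412 CPM at 2 weeks and at 6121 and 3874 CPM at 4 weeks, a mean of 6058 ± 1635 CPM, and the lowest mouse lay well below the other 3. Amy2a5 stood at 136 and 89.4 CPM at 2 weeks and at 199 and 90.0 CPM at 4 weeks, and the first mouse at each time was the higher one. An average Acinar cell thus held 702 ± 99.2 Cpa1 UMIs and 4.44 ± 1.79 Amy2a5 UMIs.

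**Figure D1:**
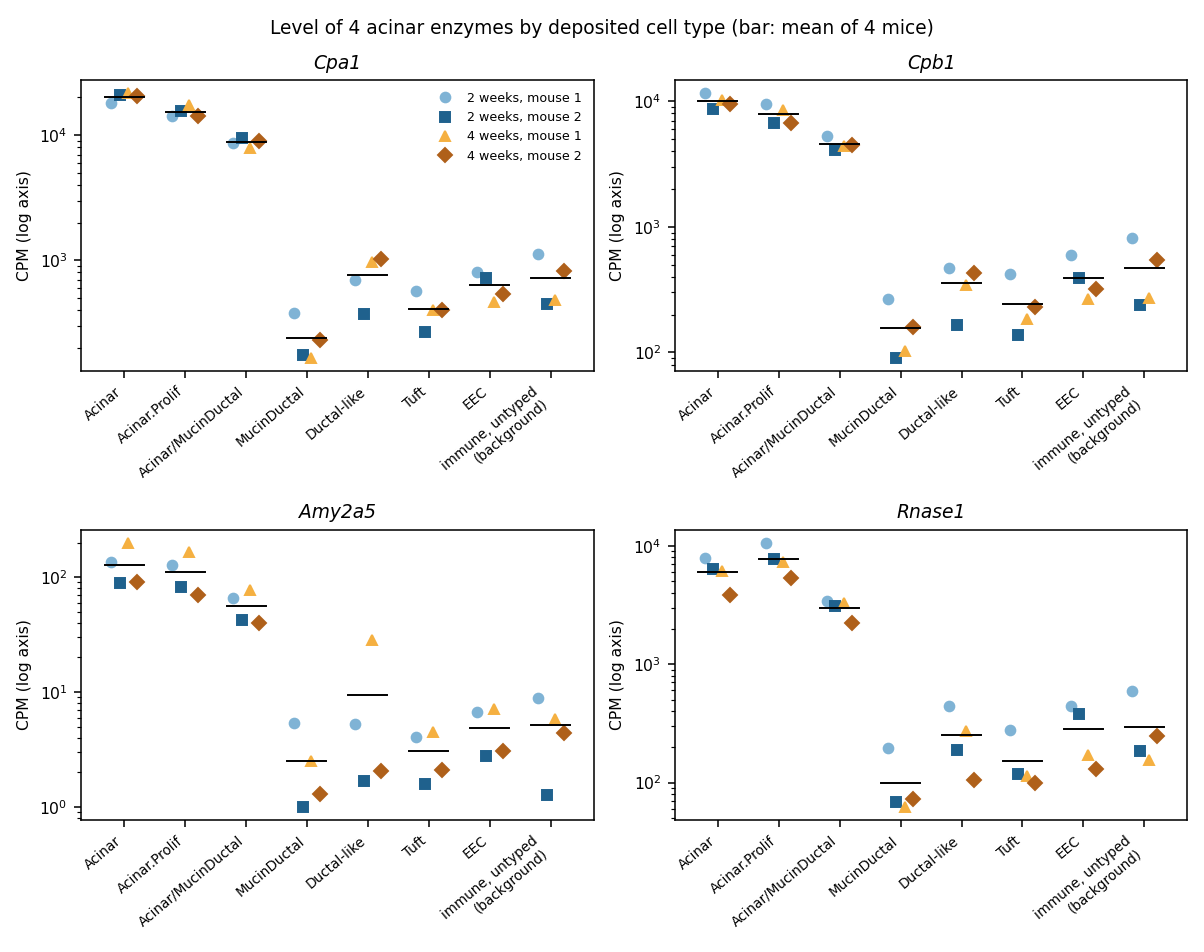
Level of each enzyme gene in CPM (log axis) in 7 deposited cell types and in untyped immune cells, with 1 point per mouse and a bar at the mean of the 4 mice. Cpa1 goes from 20293 CPM in Acinar to 8754 CPM in Acinar/MucinDuctal and 238 CPM in MucinDuctal, and in the immune cells it is 451 to 1129 CPM, above each MucinDuctal value.

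Levels were ordered over the types with at least 20 cells in each mouse, which leaves out Tuft/EEC.Progenitor. In 3 mice its mean log2 ratio to Acinar was -6.405 for Cpa1, -6.162 for Cpb1, -6.256 for Amy2a5 and -5.792 for Rnase1. For Cpa1 the order of the levels was Acinar, Acinar.Prolif (15367 ± 1587 CPM), Acinar/MucinDuctal (8754 ± 677 CPM), Ductal-like (764 ± 300 CPM), EEC (634 ± 156 CPM), Tuft (410 ± 124 CPM) and MucinDuctal (238 ± 99.2 CPM). The mice of the first 3 types did not overlap with those of the next type in this order, and from Ductal-like down each type overlapped with its neighbour. Cpb1 had the same first 3 types, with Acinar and Acinar.Prolif overlapping, and then EEC (394 ± 146 CPM), Ductal-like (353 ± 137 CPM), Tuft (243 ± 124 CPM) and MucinDuctal (155 ± 81.1 CPM), which overlapped from one to the next. Amy2a5 went from 129 ± 51.7 CPM in Acinar to 56.2 ± 17.8 CPM in Acinar/MucinDuctal and 2.53 ± 1.98 CPM in MucinDuctal. Its mean in Ductal-like, 9.35 CPM, came mostly from the 4-week mouse 1, in which 9 of 13 UMIs were in 1 of 23 cells. Rnase1 was the one member with its highest level in Acinar.Prolif (7736 ± 2155 CPM), followed by Acinar, Acinar/MucinDuctal (3001 ± 530 CPM), EEC (281 ± 154 CPM), Ductal-like (251 ± 143 CPM), Tuft (153 ± 84.1 CPM) and MucinDuctal (99.5 ± 64.2 CPM). The types were defined by the authors on the same counts, so these levels are descriptions and no p-value is given between types.

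Cycling acinar cells held less of the carboxypeptidases and amylase per UMI than other acinar cells of the same mouse, and more Rnase1. The log2 ratio of CPM, Acinar.Prolif over Acinar, was -0.40 ± 0.11 for Cpa1, -0.35 ± 0.11 for Cpb1 and -0.21 ± 0.13 for Amy2a5 (SD, n = 4), below 0 in 4 of 4 mice for each. For Rnase1 it was 0.36 ± 0.11, above 0 in 4 of 4 mice: 10575 against 7825 CPM and 7667 against 6412 CPM at 2 weeks, and 7360 against 6121 CPM and 5342 against 3874 CPM at 4 weeks. Of the 25 digestive enzyme genes, 2 were higher in Acinar.Prolif in all 4 mice, Rnase1 and the phospholipase Pla2g1b (0.30 ± 0.13), and 16 were lower in all 4, with the trypsinogen Prss3 (-1.06 ± 0.36) and Try5 (-0.99 ± 0.29) the lowest. The median over the 24 genes with a ratio was -0.29, which leaves out Cela3a, with no UMI in Acinar.Prolif of 1 mouse. Over all 7973 genes with a mean of at least 10 CPM, 65.9% were higher and 3.30% lower in 4 of 4 mice, and the median difference was 0.40. The direction for Rnase1 depended on the scale: with library sizes that leave out the digestive enzyme and granule genes, its ratio was -0.03, above 0 in 2 of 4 mice, while those of Cpa1, Cpb1 and Amy2a5 became -0.79, -0.74 and -0.59. A change of library size moves the 4 ratios alike, so the gap between Rnase1 and the other 3 genes does not depend on it.

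**Figure D2:**
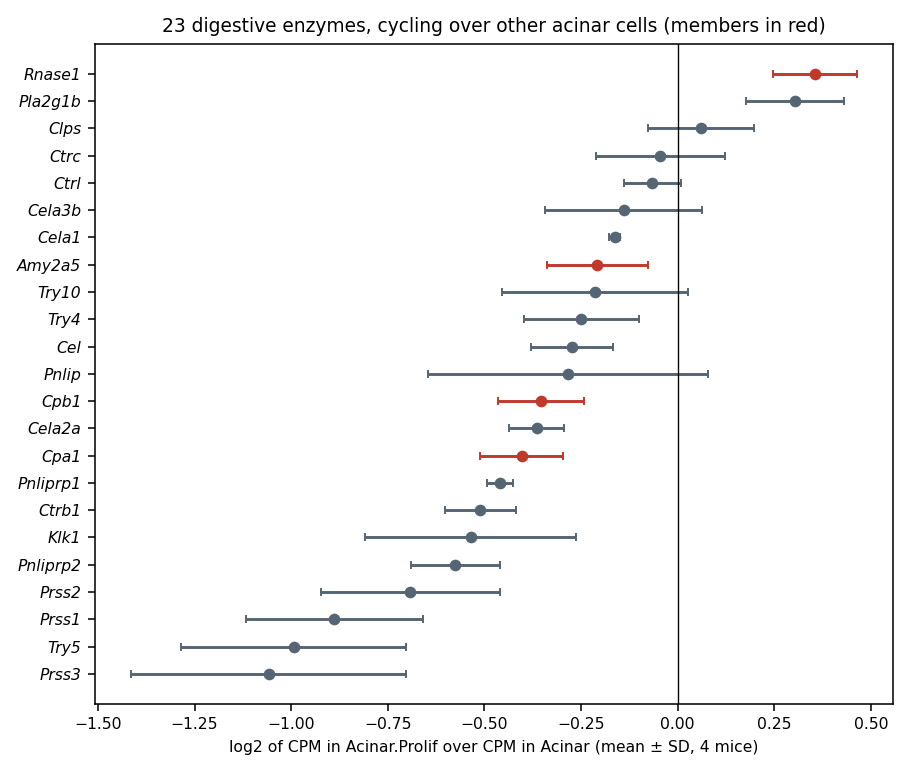
Log2 ratio of CPM in Acinar.Prolif over CPM in Acinar for 23 of the 25 digestive enzyme genes, as the mean of the within-mouse ratios with the SD over 4 mice, members in red. Rnase1 (0.36) and Pla2g1b (0.30) sit to the right of 0 and Cpa1 (-0.40), Cpb1 (-0.35) and Amy2a5 (-0.21) to the left, and with library sizes without the enzymes the Rnase1 value is -0.03.

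In Acinar/MucinDuctal cells all 4 genes were at about the same fraction of their Acinar level. The log2 ratio to Acinar was -1.21 ± 0.17 for Cpa1, -1.13 ± 0.07 for Cpb1, -1.17 ± 0.15 for Amy2a5 and -0.99 ± 0.17 for Rnase1, below 0 in 4 of 4 mice for each. The size depended on the scale: with library sizes without enzymes the ratios were -2.11, -2.03, -2.06 and -1.88, and in UMIs per cell they were -2.83 ± 1.25, -2.74 ± 1.19, -2.78 ± 1.25 and -2.60 ± 1.08. The mean hid 2 deposited clusters that differed in all 4 genes. In cluster 3 Cpa1 stood at 13422 ± 1384 CPM, Cpb1 at 7035 ± 856 CPM, Amy2a5 at 85.5 ± 32.1 CPM and Rnase1 at 4723 ± 1139 CPM. In cluster 4 they stood at 3758 ± 853, 1881 ± 398, 25.5 ± 6.72 and 1214 ± 134 CPM. Between single cells of the type the 3 abundant genes went together: Spearman's rho of CPM per cell within a mouse was 0.657 to 0.864 for Cpa1 with Cpb1, 0.496 to 0.757 for Cpa1 with Rnase1 and 0.638 to 0.815 for Cpb1 with Rnase1. The median depth of these cells was 3387 UMIs in the 2-week mouse 1, 19556 UMIs in the 2-week mouse 2, and 2659 and 3555 UMIs in the 4-week mice, against 24008 to 32665 UMIs in Acinar, so at 3 of 4 mice most cells of this type were shallow. The 10 mucin and metaplasia genes summed to 16319 CPM in the 2-week mouse 2 and to 41220 to 63102 CPM in the other 3. The part of depth and of mixed cells in these levels was not tested.

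In MucinDuctal, Tuft and EEC cells the 4 genes were at 0.284 to 2.18 times the CPM found in cells that should not make them. Free RNA from broken cells can enter droplets. As its measure the level in 1755 untyped immune cells of the same mice was taken, which hold immune markers and none of 4 epithelial genes. Whether all enzyme UMIs of these immune cells are free RNA was not tested. In these cells Cpa1 stood at 1129 and 451 CPM at 2 weeks and at 478 and 817 CPM at 4 weeks. In MucinDuctal it stood at 381 and 174 CPM and at 167 and 232 CPM, with the 2-week mouse 1 highest in both. On the CPM scale MucinDuctal was at 0.284 to 0.386 of the immune level for Cpa1, 0.294 to 0.379 for Cpb1, 0.290 to 0.787 for Amy2a5 and 0.291 to 0.401 for Rnase1. MucinDuctal cells are deeper, with medians of 15110 to 21810 UMIs against 3869 to 5097, and per cell they held 1.04 to 1.88 times the Cpa1 UMIs of an immune cell, 1.07 to 1.84 times the Cpb1 UMIs, 1.06 to 3.83 times the Amy2a5 UMIs and 1.06 to 1.78 times the Rnase1 UMIs. Each Tuft and EEC sum was likewise above the immune cells per cell, by 1.27 to 5.60 times over the 4 genes, while on the CPM scale the Cpa1 ratio was 0.491 to 0.833 in Tuft and 0.662 to 1.61 in EEC.

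The proportions of the genes to each other were read in the same sums. In the 2-week mouse 1 there were 0.514 Rnase1 UMIs per Cpa1 UMI in MucinDuctal, 0.522 in the immune cells and 0.431 in Acinar. In the 2-week mouse 2 the values were 0.392, 0.413 and 0.308, in the 4-week mouse 1 they were 0.372, 0.324 and 0.285, and in the 4-week mouse 2 they were 0.311, 0.303 and 0.188. Cpb1 per Cpa1 in the 2-week mouse 1 was 0.704 in MucinDuctal, 0.726 in the immune cells and 0.634 in Acinar, and in the 2-week mouse 2 it was 0.522, 0.532 and 0.413. MucinDuctal was nearer to the immune cells than to Acinar in 4 of 4 mice for both proportions. EEC was nearer to them in 4 of 4 mice for Cpb1 and in 3 of 4 for Rnase1, and Tuft in 3 of 4 for each. The Acinar values pool deposited clusters that differ in these proportions. In Acinar cluster 0, Cpb1 per Cpa1 was 0.716 and 0.520 in the 2-week mice. There MucinDuctal was nearer to this cluster than to the immune cells. In the 4-week mice the cluster was at 0.501 and 0.534, and MucinDuctal, at 0.611 and 0.689, was nearer to the immune cells. For Rnase1 it was nearer to the immune cells in each mouse.

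**Figure D3:**
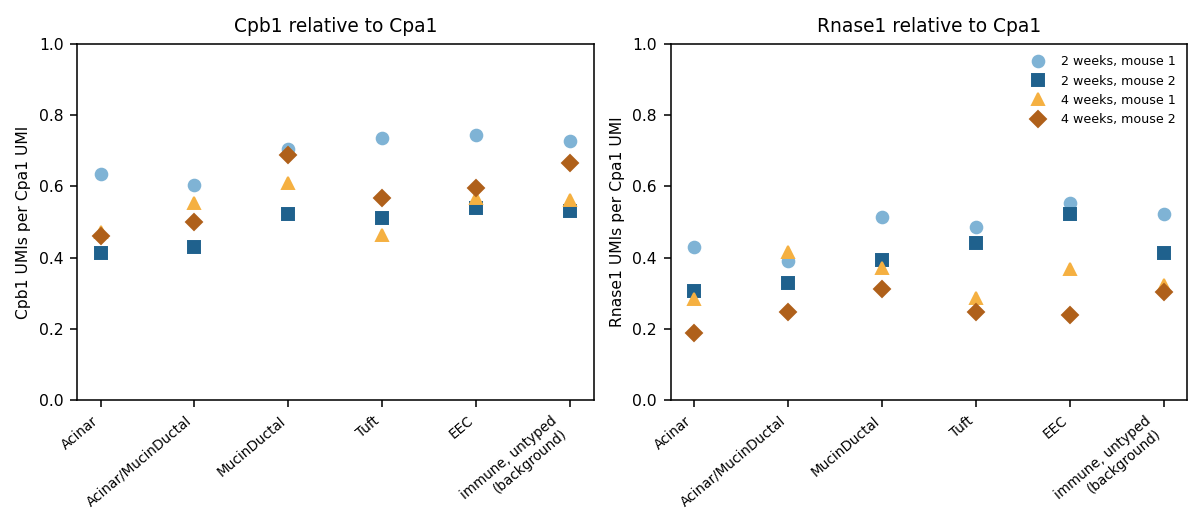
UMIs of Cpb1 (left) and of Rnase1 (right) per Cpa1 UMI, summed over the cells of each type in each mouse, with untyped immune cells taken as the measure of free RNA. In each mouse the MucinDuctal point lies nearer to the immune point than to the Acinar point, as for Rnase1 in the 4-week mouse 2 with 0.311, 0.303 and 0.188. The Acinar point pools deposited clusters that differ in both proportions.

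To compare cells of unequal depth, each was thinned to 1500 UMIs and set against the 95th percentile of the immune cells of its mouse. Above that percentile were 97.0% to 99.7% of Acinar cells for Cpa1, 81.4% to 97.4% for Cpb1 and 75.1% to 94.4% for Rnase1. In Acinar/MucinDuctal the shares were 57.6% to 75.6%, 53.4% to 69.5% and 50.6% to 69.4%. In MucinDuctal they were 0.0530% to 0.432% for Cpa1, 0.0102% to 0.542% for Cpb1 and 0.0110% to 1.28% for Rnase1, under the 3.05% to 4.96%, 1.96% to 3.87% and 1.78% to 4.95% of the immune cells themselves. Thinning takes more UMIs from MucinDuctal cells, with median depths of 15110 to 21810 UMIs, than from immune cells, with 3868.5 to 5097. UMIs that do not grow with depth are thus cut more in MucinDuctal, and the part of this in its lower shares was not tested. Unthinned, MucinDuctal cells held 1.035 to 1.876 times the Cpa1 UMIs of an immune cell. The shares also depend on the cells that set the percentile. With all untyped cells in place of the immune cells, which then include cells with acinar genes, the mean shares for Cpa1, Cpb1 and Rnase1 were 44.5%, 32.7% and 38.8% in Acinar and 6.92%, 5.64% and 8.38% in Acinar/MucinDuctal. At 3000 UMIs they were 99.3%, 93.8% and 92.5% in Acinar, 77.7%, 72.0% and 69.7% in Acinar/MucinDuctal and 0.449%, 0.297% and 0.403% in MucinDuctal. Ductal-like cells, 20 to 56 per mouse, had 1.49% to 13.7% above it for Cpa1. For Amy2a5, with few UMIs, the share at 1500 UMIs was 11.5% to 23.0% in Acinar and 0.165% to 0.886% in MucinDuctal, against 0.328% to 1.89% of immune cells. At 1500 UMIs, 22.0% to 42.7% of MucinDuctal cells held a Cpa1 UMI against 43.2% to 77.1% of immune cells, and at full depth 84.8% to 98.9% against 73.5% to 99.0%, so the presence of a UMI does not mark expression here. Cells under 1500 UMIs were left out, 21 to 141 per mouse in Acinar/MucinDuctal, 8 to 43 among the immune cells and 0 to 17 in each other type.

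Between Acinar and MucinDuctal, the log2 ratio of CPM was -6.49 ± 0.65 for Cpa1, -6.13 ± 0.58 for Cpb1, -5.90 ± 0.83 for Amy2a5 and -6.06 ± 0.63 for Rnase1. The MucinDuctal values were under the immune level in CPM, so these ratios include whatever free RNA adds, and their likeness over the 4 genes is no measure of the cells' own mRNA. With the UMIs per cell of the immune cells subtracted from both types, the log2 ratios were -9.08 ± 1.64, -8.42 ± 0.96, -7.63 ± 2.03 and -8.35 ± 1.02. Of 24 digestive enzyme genes with a value, 18 were below -5, with a median of -6.11 over the list. The elastase Cela1 (-1.87 ± 0.19), Pla2g1b (-2.22 ± 0.75), the kallikrein Klk1 (-2.65 ± 0.60) and the colipase Clps (-3.11 ± 1.45) differed least, and none of the 4 members was among the 6 above -5.

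The genes most like Cpa1 and Cpb1 over the 28 sums of mouse and type came from the digestive enzyme list, while the 5 most like Rnase1 and the 5 most like Amy2a5 held 1 gene of that list each, Cel and Cela2a. Across these sums, which share libraries and types, Pearson's r of log2(CPM + 1) with Cpa1 was among the highest for the lipase-related Pnliprp1 (0.998), the bile salt-activated lipase Cel (0.997), Cpb1 (0.994) and the chymotrypsin Ctrc (0.993). For Cpb1 this held for Cel (0.996), Ctrl (0.995), Cpa1 (0.994) and the trypsinogen Prss2 (0.994). For Rnase1 the list was led by the aquaporin Aqp12 (0.989), Reg3d (0.986), Cuzd1 (0.985), Cel (0.985) and 1810028F09Rik (0.984), and Cpb1 was the seventh and Cpa1 the twelfth gene. For Amy2a5 it was the granule lectin Zg16 (0.979), Serpini2 (0.976), Aqp12 (0.974), Cela2a (0.973) and Cabp2 (0.971). These are descriptions over sums dominated by the step from acinar to other types.

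Relatives of the 4 genes had other patterns. Cpa3, the mast-cell carboxypeptidase, stayed at 0.698 CPM in Acinar and had no UMI in MucinDuctal or Tuft. Cpe, which processes peptide hormones, was lowest in MucinDuctal (12.8 ± 2.34 CPM) and Acinar.Prolif (15.5 ± 5.10 CPM) and highest in EEC (695 ± 120 CPM) and Tuft (211 ± 77.4 CPM). Cpd, a carboxypeptidase of the trans-Golgi network, was 15.1 ± 4.96 CPM in Acinar and 157 ± 39.5 CPM in MucinDuctal, and Cpm was 106 ± 40.7 CPM in Tuft against 2.11 ± 0.386 CPM in Acinar. Among ribonucleases, Rnase4 was higher in MucinDuctal (435 ± 168 CPM) than in Acinar (217 ± 62.7 CPM), the reverse of Rnase1, and Ang stood at 88.9 ± 36.8 and 90.0 ± 44.2 CPM. The 25 digestive enzyme genes summed to 480330 to 563525 CPM in Acinar and 14049 to 30529 CPM in MucinDuctal. With library sizes without enzymes the Cpa1 log2 ratio, MucinDuctal over Acinar, was -7.83 in place of -6.49. A change of library size moves all genes alike, so the Rnase4 and Ang comparisons are given for the CPM scale only. Rnh1, the intracellular ribonuclease inhibitor, was 196 ± 26.3 CPM in Acinar and 141 ± 7.27 CPM in MucinDuctal. The regulators Ptf1a and Rbpjl were at 57.6 ± 12.8 and 157 ± 35.4 CPM in Acinar and at 1.72 ± 0.952 and 15.5 ± 6.53 CPM in MucinDuctal, with 2.17 ± 0.850 and 23.8 ± 9.70 CPM in the immune cells.

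Between cells of the Acinar type 5 of the 6 pairs of members had a positive rank correlation in 4 of 4 mice, and Cpa1 with Rnase1 did not. Spearman's rho between cells of a mouse was 0.221 to 0.43 for Cpa1 with Cpb1 and 0.265 to 0.56 for Cpb1 with Rnase1, but -0.338 to 0.052 for Cpa1 with Rnase1, and -0.256 to -0.068 for this pair in Acinar.Prolif. For Amy2a5 it was 0.192 to 0.269 with Cpa1, 0.096 to 0.314 with Cpb1 and 0.035 to 0.204 with Rnase1, in a gene with few UMIs per cell. The coefficient of variation between Acinar cells was 0.415 to 0.478 for Cpa1, 0.416 to 0.716 for Cpb1 and 0.537 to 0.726 for Rnase1, where counting alone gives at most 0.0659, 0.0908 and 0.124. The deposited clusters of this type differed in these levels. Cluster 6 had the most Cpa1 (23450 ± 1947 CPM) and the least Rnase1 (3084 ± 1130 CPM). Cluster 0 had 20504 ± 2338 CPM of Cpa1 and 7533 ± 1890 CPM of Rnase1, and cluster 8 had 12394 ± 2714 and 7228 ± 2828 CPM. Clusters were made from these counts, and cells of cluster 6 held the most UMIs of Cpa1, 1108 ± 30.7 per cell against 707 ± 101 in cluster 0 and 251 ± 93.0 in cluster 8.

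Some Acinar cells kept Cpa1 and held little Cpb1. This was noticed in the spread of single cells, and the limits used to count them were chosen after the values were seen, so no test is given. Among Acinar cells with at least 50 Cpa1 UMIs, fewer than 0.1 Cpb1 UMIs per Cpa1 UMI were found in 24 of 1391 cells (1.73%) of the 2-week mouse 1, 81 of 550 (14.7%) of the 2-week mouse 2, 13 of 742 (1.75%) of the 4-week mouse 1 and 42 of 840 (5.00%) of the 4-week mouse 2. The median proportion of all such cells was 0.730, 0.413, 0.534 and 0.517. Between 0.08 and 0.1 lay 9, 18, 3 and 10 cells of the 4 mice, and between 0.1 and 0.12 lay 2, 16, 6 and 4. In the 2-week mouse 2, 27 of the 81 low cells lay in the lowest bar of the plot of this proportion, below -1.8 on the log10 scale, as did 5, 3 and 6 cells of the other mice. In the 2-week mouse 2 the low cells had a median of 327 Cpa1, 10 Cpb1 and 39 Rnase1 UMIs at a depth of 25051 UMIs, and the other cells had 452, 210 and 164 at 24782 UMIs. In the other 3 mice the low cells held more Cpa1 UMIs per cell than the other cells, with medians of 641.5 against 403 UMIs in the 2-week mouse 1, and 679 against 489 and 741.5 against 570.5 UMIs in the 4-week mice. Their depth there was 42116 against 27429 UMIs, 29250 against 28730 UMIs and 41124 against 33826 UMIs, so the median depth of the low cells was the higher one in 4 of 4 mice. In CPM the low cells had less Cpa1, 15562 against 18281 in the 2-week mouse 1 and 18577 against 20917 in the 4-week mouse 2. Both limits use Cpa1 UMIs, so the Cpa1 that these cells kept is part of how they were picked. In the 2-week mouse 2, 72 of the 81 low cells were in cluster 8, while in the 4-week mouse 2 26 of 42 were in cluster 6. By the same limits 3 of 443 (0.677%), 11 of 99 (11.1%), 1 of 175 (0.571%) and 6 of 138 (4.35%) Acinar.Prolif cells were low in Cpb1 in the 4 mice. In Acinar/MucinDuctal these were 0 of 71 (0%), 9 of 157 (5.73%), 2 of 86 (2.33%) and 1 of 276 (0.362%). The limit of 50 Cpa1 UMIs left out most of this type in 3 mice, which had 301, 293, 349 and 1012 such cells in all. Under 0.05 Rnase1 UMIs per Cpa1 UMI, a limit also chosen late, were 2.01%, 6.36%, 4.58% and 13.7% of the Acinar cells. Low in both were 8, 17, 3 and 24 Acinar cells.

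**Figure D4:**
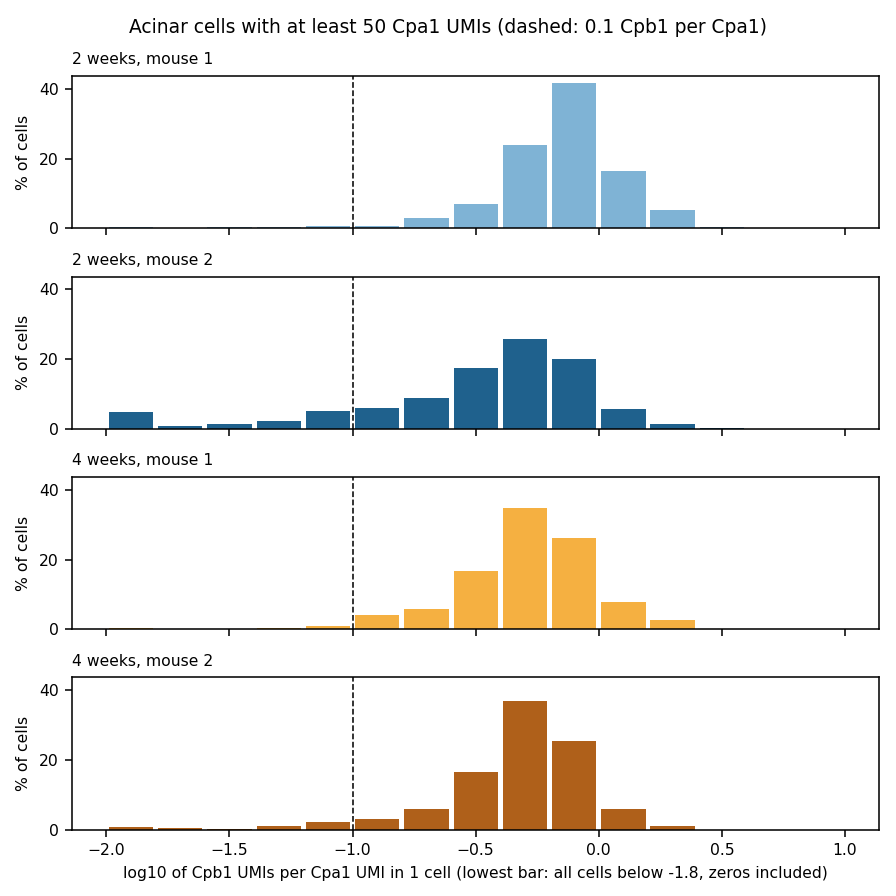
Percent of Acinar cells with at least 50 Cpa1 UMIs (vertical axis) by the log10 of Cpb1 UMIs per Cpa1 UMI in the cell, with 1 panel per mouse and a dashed line at 0.1 Cpb1 per Cpa1. Left of the line lie 1.73%, 14.7%, 1.75% and 5.00% of the cells of the 4 mice, and 27 cells of the 2-week mouse 2 are in its lowest bar.

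The low-Cpb1 Acinar cells were low in other enzymes as well, but not in all. In the 3 mice with at least 20 such cells, 18 of the 22 other digestive enzyme genes with a value in each were lower in them in 3 of 3 mice. Of all 4901 genes with a mean of at least 10 CPM in these cells, 2.10% were lower and 80.1% higher in 3 of 3 mice. The log2 ratio, low-Cpb1 over other Acinar cells, was -4.72 to -3.86 for the lipase Pnlip, -3.32 to -2.03 for Ctrc, -3.04 to -1.99 for the chymotrypsin-like Ctrl, -2.06 to -1.61 for Rnase1 and -0.70 to 0.12 for Amy2a5. The trypsin inhibitor Spink1 was at -3.88 to -1.36 and the granule lectin Zg16 at -2.86 to -2.40. Cpa1 itself, on which the cells were picked, was at -0.46 to -0.17, Pnliprp1 at -0.38 to -0.22, Clps at -0.20 to 0.19 and Ctrb1 at 0.01 to 0.11. Of 10 acinar regulators 9 were higher in the low cells in 3 of 3 mice, against 80.1% of all genes, with Ptf1a at 0.85 to 1.56 and Rbpjl at 0.14 to 0.24, and Bhlha15 was at -0.55 to 0.06. The summed level of 9 ductal genes had a median of 1395, 1874, 821 and 1333 CPM in the low cells of the 4 mice and of 712, 1117, 541 and 689 CPM in the others. The enteroendocrine list was lower in the low cells of 4 of 4 mice, with medians of 75.8, 40.2, 41.6 and 20.2 CPM against 145, 61.1, 89.1 and 47.4 CPM. The lymphoid list had medians of 34.6, 22.8, 0 and 32.03 CPM against 0 in each mouse. The mucin and metaplasia list went both ways, with 3318, 4875, 1943 and 1556 CPM against 2606, 3154, 2870 and 2235 CPM. The 9 genes induced by tissue dissociation, such as Fos, had medians of 373, 2690, 250 and 199 CPM against 211, 669, 75.5 and 111 CPM. The mouse with most of these cells also had the highest level of the dissociation genes in the Acinar type as a whole, 1298 CPM against 206 to 464 CPM in the other 3. Higher levels of the ductal and dissociation lists stand beside the 80.1% of all genes that were higher in the low cells. The part of depth and of these lists in the result was not tested.

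None of the 4 genes passed the test for a difference between 2 and 4 weeks in any cell type. UMI counts were summed per mouse and type and tested with edgeR's quasi-likelihood test, with p-values adjusted over all genes of the type. In Acinar 0 of 12343 genes tested were called (0%), with 344 at an unadjusted p under 0.05, and DESeq2 called 17 genes (0.0882%) and no member. The log2 change from 2 to 4 weeks in Acinar was 0.57 ± 0.36 (SE) for Cpa1, 0.40 ± 0.39 for Cpb1, 0.79 ± 0.52 for Amy2a5 and -0.07 ± 0.41 for Rnase1, each with an adjusted p of 0.998 by edgeR. The scales differ, since the fit rescales libraries to the bulk of genes: mean CPM was 10063 at 2 weeks and 9864 at 4 weeks for Cpb1, and 7118 and 4998 for Rnase1. The 25 enzyme genes tested had a median of 0.58, with 23 above 0, against -0.03 over all genes, and 0 were called in either direction. In the same comparison the 9 dissociation genes had a median of -1.60, with 0 above 0.

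In Acinar.Prolif 1 of 10046 genes was called (0.00995%), the stress-induced factor Atf3 of the dissociation list, and in Acinar/MucinDuctal 0 of 11620 (0%), in MucinDuctal 0 of 13463 (0%), in Ductal-like 0 of 8748 (0%), in Tuft 0 of 10967 (0%) and in EEC 0 of 11869 (0%). Atf3, named here after its value was seen, had a log2 change of -2.39 ± 0.25 (SE) and an adjusted p of 0.0141 by edgeR. DESeq2 called 2 (0.0118%), 20 (0.107%), 45 (0.22%), 1 (0.00602%), 30 (0.163%) and 14 genes (0.0732%). Over the 7 types, 27 pairs of member and type could be tested, with a lowest adjusted p of 0.605 by edgeR. The pair with this lowest value was Rnase1 in EEC cells, at 445 and 379 CPM in the 2-week mice and at 172 and 129 CPM in the 4-week mice. The log2 change was -1.36 ± 0.21 (SE), adjusted p = 0.605 by edgeR's quasi-likelihood test and 1.95e-05 by DESeq2. The log2 change in EEC was -0.69 ± 0.25 for Cpb1 and -0.52 ± 0.15 for Cpa1, with an adjusted p of 0.986 each by edgeR. None of the 24 enzyme genes tested in EEC was called. The immune cells had Rnase1 at 589 and 186 CPM at 2 weeks and at 155 and 248 CPM at 4 weeks, so the EEC level was 0.755, 2.04, 1.11 and 0.522 of theirs in the 4 mice. The part of free RNA in the EEC values was not tested. Cpa1 in Ductal-like cells was at 694 and 370 CPM and at 971 and 1022 CPM, a change of 0.93 ± 0.29 (adjusted p = 0.9 by edgeR), from 22 to 56 cells per mouse.

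Which members were called depended on the mice kept and, for Rnase1 in EEC, on the test and the filter. Fits without the 2-week mouse 2 assume that the lone 2-week mouse varies like the others, so only their log2 changes are given. For Rnase1 the change was then -1.45 in MucinDuctal, -1.17 in Ductal-like and -1.39 in Tuft. For Cpb1 it was -1.03 in Tuft and -1.01 in EEC, and for Cpa1 it was -0.65 in EEC. The 2-week mouse 1, which then stands alone for its time, had the highest Cpa1 level in the immune cells, 1129 CPM against 451 to 817 CPM in the other 3. The part of free RNA in these changes was not tested. Without the 2-week mouse 1 in place of the other, the change in Ductal-like was 1.41 for Cpa1 and 1.21 for Cpb1. These fits leave out different 2-week mice, so their directions are not compared between types. Over all fits that leave out 1 mouse, Cpb1 was at -0.24 to 1.21 in Ductal-like and at -1.03 to 0.59 in Tuft. Without a filter on low counts Rnase1 was called in EEC (-1.37, adjusted p = 1.14e-11).

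**Figure D5:**
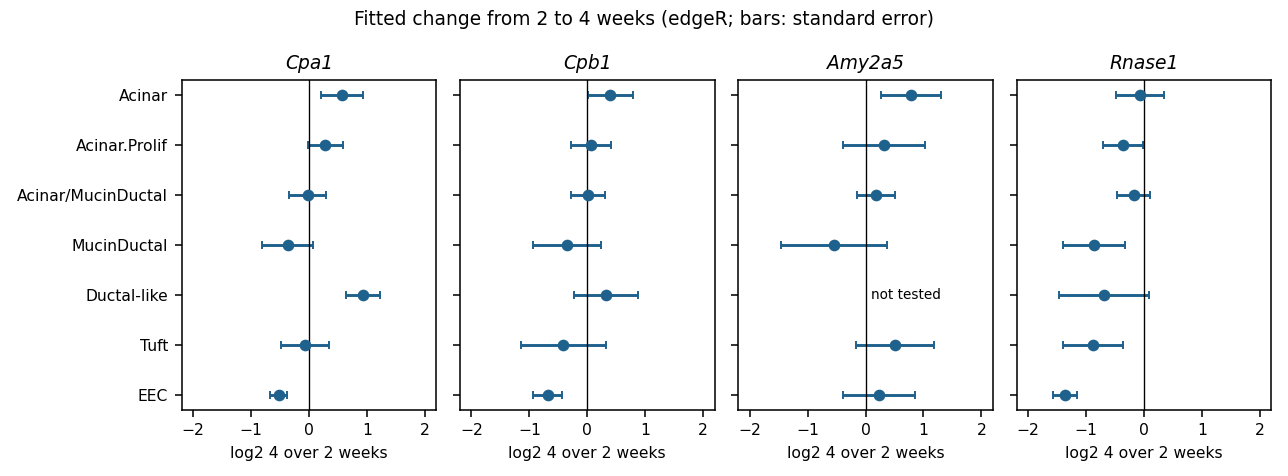
Fitted log2 change of each gene from 2 to 4 weeks of caerulein in 7 cell types (points, with bars of 1 standard error from edgeR's quasi-likelihood fit), where Amy2a5 was too low to be tested in Ductal-like. The point farthest from 0 is Rnase1 in EEC (-1.36), and no point has an adjusted p under 0.05.

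The change with time did not differ detectably between MucinDuctal and Acinar cells: the interaction was called for 0 of 14098 genes by edgeR (0%), with 430 at an unadjusted p under 0.05, and for 0 by DESeq2 (0%). For the members the difference, MucinDuctal minus Acinar, was -0.87 ± 0.77 for Cpa1, -0.64 ± 0.68 for Cpb1, -1.02 ± 0.50 for Amy2a5 and -0.61 ± 0.65 for Rnase1, with an adjusted p of 1 each by edgeR. Without the 2-week mouse 2, which leaves a lone mouse at that time, the difference was -1.74 for Amy2a5. With 2 mice at each time an exact permutation test cannot give a p below 0.333. The p-values above rest on fitted count models that share information on spread between genes, not on the spread of 2 animals per group alone.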

How the data were processed

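The values used are counts of UMIs per gene and cell, which the authors deposited unnormalized for all cells and for the EYFP-positive cells, with tables of cell types and clusters. Per the submitters' processing notes, Cell Ranger 4.0.0, Seurat 3.2.3 and mm10 were used. The 13362 typed cells had the same counts in both deposited matrices, and no cell had under 1000 UMIs. Total depth was 72459531 to 103610807 UMIs per mouse, and no per-sample column lacked a mouse (0 unmapped). Mouse numbers follow the order of deposition and pair nothing across times. The 4 genes and all gene lists were chosen with earlier results of these data known.

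From the counts, CPM and UMIs per cell were computed per mouse and type where at least 20 cells were present (at least 5 in the alternative cell sets). The Tuft/EEC.Progenitor class had 10 cells in the 2-week mouse 1 and was not tested. Summed counts were compared between times with edgeR 4.0.16 (TMM, filterByExpr, robust quasi-likelihood test, Benjamini-Hochberg adjustment at 0.05, all 4 mice in 1 fit per type), and with a mouse block for the interaction. DESeq2 1.42.0 was an alternative. The standard error is the log2 change divided by the root of the F statistic. On simulated counts with 200 genes changed 4-fold, edgeR recovered 175 in Acinar (12425 genes, 12 false calls) and 188 in MucinDuctal (13539 genes, 8 false calls). Recovery at the spread that each measured gene has between mice was not tested. In the measured Acinar counts 2 genes of the dissociation list, picked for their values, were not called. Atf3 had a log2 change of -2.30 (adjusted p = 0.718 by edgeR) and Hspa1a one of -3.53 (adjusted p = 0.998 by edgeR). Immune background cells were untyped cells with at least 3 UMIs from at least 2 lymphoid or myeloid genes and 0 UMIs of 4 epithelial genes. Thinning used the exact hypergeometric expectation. Doublets were not called, and an alternative left out the deepest 5% of cells. Named genes are the 4 members, the 5 genes most like each (by Pearson's r of log2(CPM + 1), asking 10 CPM on average) and genes of the lists; 1 of them is not reported here. Prss3, Try5 and the least different enzymes are list genes picked for their values. The limits on Cpb1 per Cpa1 (50 UMIs, 0.1) were set after the values were seen. Counts were not corrected for free RNA unless stated. Cell barcodes found in more than 1 mouse numbered 67, in 139 cells, of which 82 were typed. Alternatives were another test, no filter, another library size, other cell sets, subtraction of free RNA and leaving out each mouse. Of the files of tuft and enteroendocrine cells alone, the subclass labels were used and the matrix was not.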

Additional observations from a re-analysis of the deposited data

Results flagged for a closer look

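All 4 genes were also present in data outside the comparisons. Besides the immune cells, 6023 cells had no deposited type, and their mean levels were 5156 CPM for Cpa1, 3145 CPM for Cpb1, 37.1 CPM for Amy2a5 and 1919 CPM for Rnase1. The immune cells of the same mice had 719, 468, 5.13 and 294 CPM. The other untyped cells were higher in 4 of 4 mice for each gene, by 4.04 to 11.3 times for Cpa1, 4.35 to 11.3 times for Cpb1, 4.52 to 10.4 times for Amy2a5 and 4.23 to 11.6 times for Rnase1. They hold a mixture that includes cells with acinar genes, since the 25 digestive enzyme genes summed to 74090 to 233435 CPM in them, against 9785 to 30014 CPM in the immune cells. Their median depth was 2864 to 5526 UMIs. Which of them are acinar cells was not tested. With 2 mice per group no group was large enough to check for a mouse apart from the rest.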

How the results depend on the processing

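Of 355 alternative values of the members' change with time, 311 kept direction and side of the threshold, 33 reversed and 11 passed the threshold; the causes were not tested. DESeq2 called 17, 2, 20, 45, 1, 30 and 14 genes in Acinar, Acinar.Prolif, Acinar/MucinDuctal, MucinDuctal, Ductal-like, Tuft and EEC, and no filter on low counts 286, 51, 128, 6, 81, 266 and 74, with 19 for the interaction. Acinar.Prolif gave 0 without robust dispersion and with background subtracted, and 2 without the deepest cells. Acinar/MucinDuctal gave 8 without the deepest cells, 4 with deep cells only and 6 without shared barcodes (added after seeing the data); Tuft gave 1 without the deepest cells and 1 with background subtracted. Leaving out a mouse gave 13 to 129, 5 to 143, 0 to 122, 0 to 191, 0 to 230, 5 to 273 and 0 to 366 genes in the 7 types and 2 to 955 for the interaction. Members called were 1 in EEC by DESeq2 and 1 without a filter, and on leaving out a mouse 0 to 1 in MucinDuctal, 0 to 2 in Ductal-like, Tuft and EEC, and 0 to 1 for the interaction.

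On leaving out a mouse the log2 change was -0.49 to 0.32 for Rnase1 in Acinar. In Acinar.Prolif it was -0.31 to 0.58 for Cpb1, -0.5 to 0.93 for Amy2a5 and -0.72 to 0.13 for Rnase1. In Acinar/MucinDuctal it was -0.2 to 0.13 for Cpa1, -0.14 to 0.18 for Cpb1, -0.25 to 0.53 for Amy2a5 and -0.39 to 0.01 for Rnase1. In MucinDuctal it was -0.84 to 0.36, -0.94 to 0.69, -1.41 to 1.07 and -1.45 to 0.14 for Cpa1, Cpb1, Amy2a5 and Rnase1. It was -0.24 to 1.21 for Cpb1 in Ductal-like, -0.58 to 1.04 for Amy2a5 in EEC, and in Tuft -0.52 to 0.57 for Cpa1, -1.03 to 0.59 for Cpb1 and -0.36 to 1.03 for Amy2a5. With background subtracted, Cpb1 was -0.05 in Acinar.Prolif, Cpa1 0.61 and Rnase1 0.43 in Acinar/MucinDuctal and Cpa1 0.06 in Tuft. Without the deepest cells Cpa1 was 0.29 and Rnase1 0.01 in Acinar/MucinDuctal, with deep cells only Cpa1 was 0.09, and without a filter Cpb1 was -0.0037.

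Ratios to Acinar kept their sign under each alternative in MucinDuctal for the 4 genes and in Acinar.Prolif for all but Rnase1. With library sizes without enzymes they were -0.79, -0.74, -0.59 and -0.03 in Acinar.Prolif and -7.83, -7.47, -7.23 and -7.4 in MucinDuctal for Cpa1, Cpb1, Amy2a5 and Rnase1. In UMIs per cell they were -0.51 for Cpa1 and 0.25 for Rnase1 in Acinar.Prolif, and -7.17, -6.81 and -6.74 for Cpa1, Cpb1 and Rnase1 in MucinDuctal. With background subtracted the MucinDuctal values were -9.08, -8.42, -7.63 and -8.35. Of 56 alternative shares of cells above background, 33 moved by more than 1 SD, 18 of them with all untyped cells as the background. No paired analysis was possible because the replicate numbers follow the order of deposition and tie no 2-week mouse to a 4-week mouse; ratios between types were taken within each mouse. Few Amy2a5 UMIs per cell, and 22 to 56 Ductal-like cells per mouse, limit what those values can show.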

Other observations

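The enzymes were also read in the typed endocrine and tuft subclasses. At 1500 UMIs per cell, the mean share above the 95th percentile of immune cells for Cpa1 was 5.37% in Delta (Sst+), 7.85% in ECL (Tac1+), 1.72% in EEC-Progenitor (Neurog3+), 3.72% in Epsilon (Ghrl+) and 6.70% in Ppy+. It was 0.0776% for Tuft-2 cells and 0.0477% for the Tuft-3 subclass, 1.26% and 0.0124% for Tuft-1 in the 2 mice with enough cells, and 1.97% to 4.34% over the mice for the whole Tuft type, against 4.22% of the immune cells themselves. The Ppy+ value ranged from 0.0591% to 17.4% over the mice. The highest was in the 2-week mouse 2, with 20 Ppy+ cells, where the CPM was 3.29 times that of the immune cells for Cpa1, and 4.30 times for Cpb1. ECL (Tac1+) cells of that mouse were at 3.13 times for Cpa1. Over the other 3 mice the Cpa1 ratio was 0.361 to 1.13 in Ppy+ and 0.663 to 1.52 in ECL (Tac1+). Cluster 15 of Acinar/MucinDuctal, with 8 to 22 cells per mouse, had enough cells in 1 mouse only, where Cpa1 stood at 2861 CPM and Amy2a5 had no UMI. The summed lymphoid and myeloid lists were at 24.8 to 37.8 and 12.5 to 30.8 CPM in Acinar and at 1681 to 2365 and 18586 to 21242 CPM in the immune cells.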
